A study of Homo sapiens with 4 samples.

Results

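Leukemias with a rearranged KMT2A gene depend on a chromatin complex whose parts have been worked out in detail, and MV4-11, a human acute myeloid leukemia cell line, carries such a rearrangement, the KMT2A-AFF1 (MLL-AF4) fusion. The genes described here encode 10 proteins of that complex and its close relatives: KMT2A, MEN1, PSIP1, HDGF, HDGFL2, DOT1L, AFF1, AFF4, MLLT1 and MLLT3. They were taken from the table by symbol, from a set proposed with earlier results of these data known, and are 10 of 16490 gene entries in the expression table, held in 23 of its 28581 RefSeq transcript rows with values. Total RNA of MV4-11 cells was sequenced in 4 libraries. In 2 of them, the control libraries sh-NC, the cells carried a control short hairpin RNA and kept CEBPG. In the other 2, sh-CEBPG#3, a single hairpin against CEBPG lowered this C/EBP family transcription factor. Both groups were transduced with a lentiviral pLKO.1-puro vector and selected with puromycin, so vector and drug are shared. Only 1 hairpin against CEBPG was analysed here, and separate infections within a group are not stated in the sources, so the p-values below measure the spread between these libraries, which may be technical.

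The biology of the complex is well known. In an MLL fusion the N-terminal part of KMT2A is joined to a partner, most often a protein of the transcription elongation machinery such as AFF1, MLLT1 or MLLT3. The retained N-terminus binds menin (the MEN1 product), and menin together with KMT2A forms the surface that holds LEDGF/p75, the long product of PSIP1. The PWWP domain of LEDGF/p75 reads methylated histone H3 lysine 36 and so brings the complex to the bodies of active genes. The partner end of the fusion recruits the super elongation complex, built on AFF1 or AFF4, or the histone methyltransferase DOT1L. HDGF and HDGFL2 are relatives of LEDGF with the same kind of PWWP domain. HDGFL2 also has an integrase-binding domain like that of LEDGF/p75, while HDGF, first purified from the medium of hepatoma cells as a growth factor, lacks it.

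Since CEBPG binds DNA as a basic leucine zipper protein, the DNA just before the start of the PWWP genes is shown for the one that fell most, HDGF, for PSIP1, and for HDGFL2, which was not called. The sequences are from RefSeq on GRCh38 and cover the 250 bases before the start of the main transcript, 5′ to 3′ on the strand of the gene. Capitals mark CCAAT (or ATTGG) boxes and GC boxes (GGGCGG or CCGCCC). The windows are chr1:156751676-156751925 on the minus strand for HDGF, chr9:15510971-15511220 on the minus strand for PSIP1 and chr19:4472047-4472296 on the plus strand for HDGFL2.
HDGF: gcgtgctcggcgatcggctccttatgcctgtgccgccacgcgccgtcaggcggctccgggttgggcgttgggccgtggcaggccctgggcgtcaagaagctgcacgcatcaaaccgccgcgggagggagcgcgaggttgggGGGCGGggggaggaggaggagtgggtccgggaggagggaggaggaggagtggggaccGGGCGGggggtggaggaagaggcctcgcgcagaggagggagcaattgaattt
PSIP1: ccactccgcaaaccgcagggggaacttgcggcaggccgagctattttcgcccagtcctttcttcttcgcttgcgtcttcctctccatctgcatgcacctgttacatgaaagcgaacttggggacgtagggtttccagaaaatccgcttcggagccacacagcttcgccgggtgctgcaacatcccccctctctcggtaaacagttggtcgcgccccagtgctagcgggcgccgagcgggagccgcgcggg
HDGFL2: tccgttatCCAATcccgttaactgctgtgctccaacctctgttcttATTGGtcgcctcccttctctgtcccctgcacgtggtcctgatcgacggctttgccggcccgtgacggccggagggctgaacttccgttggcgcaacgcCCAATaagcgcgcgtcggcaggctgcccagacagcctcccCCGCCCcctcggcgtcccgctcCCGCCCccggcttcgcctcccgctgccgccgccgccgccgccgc
The marked CCAAT and GC boxes are not the C/EBP and CRE motifs, which were searched for separately. The HDGF window holds 2 GC boxes and has a GC content of 71.2%. The PSIP1 window holds neither motif and has a GC content of 61.6%. The HDGFL2 window, with 69.6% GC, holds 3 CCAAT boxes and 2 GC boxes. RefSeq promoter windows were found for 9 of the 10 genes, 16 windows in all. None of the 16 held the palindromic C/EBP motif TTGCGCAA, the C/EBP-ATF composite motif TGATGCAA (or TTGCATCA on the other strand) or the palindromic CRE motif TGACGTCA, which were present in 0.132%, 0.776% and 1.63% of all 34943 promoter windows of the same length. With motifs this rare, most sets of 16 windows would hold none, so their absence does not set these genes apart. Windows of 1 gene can overlap, so CCAAT and GC boxes were counted in the main window of each gene. CCAAT boxes were present in 5 of these 9 windows, against 32.0% of all windows, and GC boxes in 8 of the 9, against 42.5%. The shares over all windows include windows at other starts of a gene, so the 2 sets of windows are unlike. Of all 16 windows of the 9 genes, 10 held a CCAAT box and 10 a GC box. These matches describe the letters of the windows, and no binding was measured here.

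The table gives FPKM (fragments scaled to transcript length and to the mapped fragments of the library), and the FPKM of the rows of a gene were summed within each library. FPKM is scaled to transcript length, so levels can be set beside each other between genes. The FPKM of a library summed to between 364353 and 389766, and read depth could not be read from these values. CEBPG itself stood at 30.4 and 33.6 FPKM in sh-NC and at 19.3 and 17.1 FPKM in sh-CEBPG#3. This was 56.8% of the control mean (log2 fold change -0.78, SE 0.09, limma adjusted p = 8.88e-05), so the knockdown was partial. Of the 8 myeloid markers, 7 were above 1 FPKM in every library, and their summed FPKM was 858.4 to 931.7 in sh-NC and 3356 to 3524 in sh-CEBPG#3, where LYZ (lysozyme, a product of maturing myeloid cells) made up most of it. The T cell and erythroid markers were not analysed here. The 2 of 3 B cell markers in the table summed to 0.995 to 1.03 FPKM in sh-NC and 1.03 to 1.52 FPKM in sh-CEBPG#3, and the 2 of 3 epithelial markers, the keratins KRT8 and KRT18, to 12.1 to 12.9 FPKM and 14.8 to 16.01 FPKM. KRT8 was at 2.29 and 2.35 FPKM in sh-NC and 6.26 and 6.19 FPKM in sh-CEBPG#3, while KRT18 was at 9.77 and 10.6 FPKM and then 9.75 and 8.57 FPKM. Whether the shift in myeloid markers has a part in any change described here was not tested. In bulk RNA, a smaller share of cells that express a gene and less RNA per cell cannot be told apart.

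Each gene with a mean of at least 0.5 FPKM was tested with limma on log2(FPKM + 1), and the fold changes are on that scale, which understates the change of low genes. All 10 genes passed this filter. By an adjusted p under 0.05 over all 12142 genes tested, 6 of the 10 were lower in sh-CEBPG#3 (HDGF, PSIP1, KMT2A, DOT1L, MEN1 and MLLT1), none was higher and 4 did not pass (HDGFL2, AFF1, AFF4 and MLLT3). Of all genes tested, 23.8% were called lower and 18.5% higher by this rule. Fewer of the 10 were called lower without sh-NC replicate 2 or without either sh-CEBPG#3 library, and fewer of all genes tested were too. HDGF and PSIP1 stayed lower whichever library was left out (log2 fold change -1.45 to -1.34 and -0.87 to -0.75). At an unadjusted p under 0.05 the same 6 were lower and 1, AFF4, was higher. Of all 12142 genes tested, 6139 had an unadjusted p under 0.05 in either direction. The median log2 fold change was -0.23 over the 10 genes and -0.04 over all genes tested. By the threshold of the study (a log2 fold change beyond 1 in either direction, at an unadjusted p under 0.05) only HDGF passed, and 1.05% of all genes tested were called lower by it. The study set this threshold on DESeq2 results, and here it was set on limma fold changes of log2(FPKM + 1), so the genes that pass can differ. In 8 of the 10 genes the 2 groups of libraries did not overlap, 7 lower and 1 higher, and the same held for 71.7% of all genes tested, so the absence of overlap by itself sets little apart here. With 2 libraries against 2, an exact two-sided permutation test of a single gene cannot give a p under 0.333, and every call rests on the limma model of the variance across genes.

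**Figure D1:**
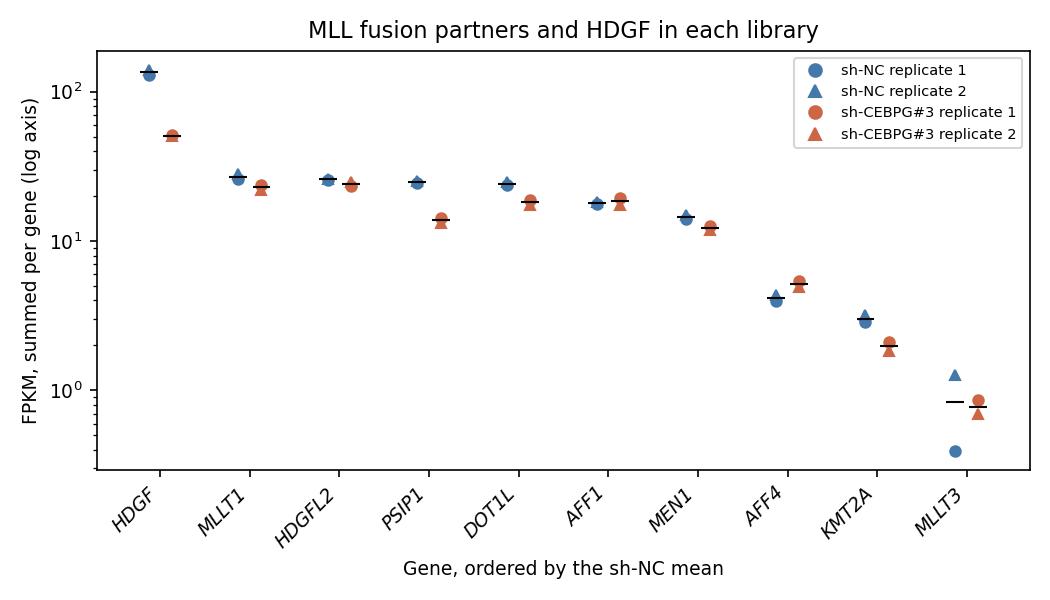
Summed FPKM (log axis) of the 10 genes in each of the 4 libraries, sh-NC in blue and sh-CEBPG#3 in orange, with circles for replicate 1, triangles for replicate 2 and bars for the group means of 2 libraries. HDGF stood far above the other genes in sh-NC and fell from a mean of 135.1 to 50.7 FPKM, and the 2 sh-NC libraries of MLLT3 lay far apart.

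HDGF, the PWWP protein at the head of its family, was the most abundant of the 10 and changed most. Its level was 129.9 and 140.3 FPKM in sh-NC and 51.0 and 50.5 FPKM in sh-CEBPG#3. The 2 knockdown libraries nearly coincided, and both lay far below the 2 controls. The mean fell from 135.1 ± 7.30 to 50.7 ± 0.35 FPKM (SD, n = 2 each), to 37.5% of the control (log2 fold change -1.40, SE 0.07, 95% interval -1.56 to -1.24, limma adjusted p = 5.21e-07). Among the 12142 genes tested it had the 35th lowest log2 fold change and the 64th largest decrease in mean FPKM. The gene lies at chr1:156742109-156766925 on the minus strand (GRCh38) and its main transcript has 6 exons. Nearly all of its signal came from one transcript, NM_004494, at 128.7 and 139.3 FPKM in sh-NC and 49.7 and 49.3 FPKM in sh-CEBPG#3, which is between 97.5% and 99.3% of the HDGF sum in each library. The fall of HDGF was thus a fall of its main transcript (log2 fold change -1.42, SE 0.07, limma adjusted p = 0.0081 over all transcripts). The other two, NM_001126050 and NM_001126051, stayed at or below 1.19 FPKM in every library.

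PSIP1, which encodes LEDGF/p75 and the shorter p52, had the next largest change. It stood at 24.4 and 25.3 FPKM in sh-NC and at 14.4 and 13.1 FPKM in sh-CEBPG#3. The groups were well apart, and the mean fell from 24.8 ± 0.65 to 13.8 ± 0.88 FPKM (SD, n = 2 each). This was 55.4% of the control (log2 fold change -0.81, SE 0.08, 95% interval -0.99 to -0.63, limma adjusted p = 4.41e-05). PSIP1 lies at chr9:15464066-15510995 on the minus strand, and its main transcript has 16 exons.

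The table splits PSIP1 into 4 transcripts. Both transcripts of the p75 form, the form with the domain that holds the menin-KMT2A complex, were called lower. NM_033222 was at 10.5 and 11.9 FPKM in sh-NC and 6.10 and 5.34 FPKM in sh-CEBPG#3 (log2 fold change -0.86, SE 0.12, limma adjusted p = 0.0336). NM_001128217 was at 10.6 and 10.1 FPKM in sh-NC and 7.02 and 6.36 FPKM in sh-CEBPG#3 (log2 fold change -0.56, SE 0.10, limma adjusted p = 0.0495), a narrow call. Summed, the p75 transcripts went from 21.1 and 22.0 FPKM to 13.1 and 11.7 FPKM, 57.5% of the control mean. They made up 86.6% and 87.1% of all PSIP1 signal in sh-NC and 91.2% and 89.0% in sh-CEBPG#3, so p75 remained the main form. NM_021144, the p52 form that lacks the integrase-binding domain, was at 1.03 and 1.58 FPKM in sh-NC and 0.708 and 0.855 FPKM in sh-CEBPG#3, and it was not called (adjusted p = 0.341). The remaining transcript, NM_001317898, was at 2.24 and 1.68 FPKM in sh-NC and 0.553 and 0.584 FPKM in sh-CEBPG#3. That is 29.0% of its control mean, the lowest of the PSIP1 transcripts, and its adjusted p was 0.0664.

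HDGFL2 (HRP2), the relative closest to LEDGF/p75 in domain make-up, gave another picture. It was at 25.6 and 26.2 FPKM in sh-NC and 23.5 and 24.9 FPKM in sh-CEBPG#3. The groups did not overlap but lay close to each other, with means of 25.9 ± 0.38 and 24.2 ± 0.95 FPKM (SD, n = 2 each). The log2 fold change was -0.09 (SE 0.08) with a 95% interval from -0.26 to 0.08, and the adjusted p was 0.352. A fall as deep as that of PSIP1 lies outside this interval. Its 2 transcripts, NM_001001520 at 19.0, 19.8, 18.0 and 20.0 FPKM and NM_032631 at 6.62, 6.38, 5.49 and 4.91 FPKM (sh-NC, then sh-CEBPG#3), were not called, with adjusted p = 0.864 and 0.2. HDGFL2 lies at chr19:4472297-4502208 on the plus strand.

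Ratios within a library are free of library scaling and set related genes against each other. HDGFL2 and PSIP1 were about level in sh-NC, with HDGFL2 at 1.05-fold and 1.03-fold the FPKM of PSIP1, and in sh-CEBPG#3 HDGFL2 was at 1.64-fold and 1.89-fold. The log2 ratio was higher by 0.76 in sh-CEBPG#3. HDGF was at 5.33-fold and 5.54-fold the FPKM of PSIP1 in sh-NC and at 3.55-fold and 3.84-fold in sh-CEBPG#3, a log2 difference of -0.56. HDGF thus remained above PSIP1 in every library. For both ratios the 2 groups did not overlap, and the exact two-sided permutation p was 0.333, the smallest that this test can give (0.444 after adjustment over the 4 ratios computed).

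KMT2A, the H3 lysine 4 methyltransferase whose N-terminus is kept in the fusion, was a low-level transcript in these cells. Its summed level was 2.86 and 3.19 FPKM in sh-NC and 2.12 and 1.84 FPKM in sh-CEBPG#3. The knockdown libraries were both below the controls, and the mean fell from 3.02 ± 0.23 to 1.98 ± 0.19 FPKM (SD, n = 2 each), 65.4% of the control. The log2 fold change was -0.43 (SE 0.11, 95% interval -0.69 to -0.18, limma adjusted p = 0.0116). Without sh-NC replicate 2 the adjusted p was 0.0563, and without sh-CEBPG#3 replicate 2 it was 0.0544. In a line with a rearranged KMT2A, a value per RefSeq transcript does not separate reads of the fusion from those of an intact copy. KMT2A lies at chr11:118436456-118526832 on the plus strand, with 36 exons in its main transcript, and annotated genes on the same strand cover 22.0% of the exon bases of that transcript.

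KMT2A was listed with 2 transcripts, and the split between them differed within groups. NM_005933 was at 2.86 and 2.77 FPKM in sh-NC and 2.12 and 1.15 FPKM in sh-CEBPG#3 (adjusted p = 0.213). NM_001197104 was at 0 in replicate 1 of both groups, and at 0.414 and 0.691 FPKM in the other sh-NC and sh-CEBPG#3 libraries, where its share of the KMT2A sum was 37.5% in sh-CEBPG#3 and NM_005933 kept 87.0% in sh-NC. The replicates of a group thus disagreed on the split between these transcripts, and how reads were assigned to them was not tested.

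MEN1, the gene of menin, was at 14.1 and 14.9 FPKM in sh-NC and at 12.6 and 11.8 FPKM in sh-CEBPG#3. The groups did not overlap, but the gap was small, from a mean of 14.5 ± 0.57 to 12.2 ± 0.52 FPKM (SD, n = 2 each), or 84.0% of the control. Its log2 fold change was -0.23 (SE 0.08, 95% interval -0.42 to -0.05, limma adjusted p = 0.0446). This call was narrow. The adjusted p was 0.163 without sh-NC replicate 2, 0.0825 without sh-CEBPG#3 replicate 1, 0.212 without sh-CEBPG#3 replicate 2 and 0.0684 when no gene was filtered out. Its 5 transcripts ranged from 0 to 7.36 FPKM and none of the 4 that were tested was called. The most abundant, NM_130799, was at 7.36 and 5.99 FPKM in sh-NC and 5.82 and 4.19 FPKM in sh-CEBPG#3 (adjusted p = 0.301). MEN1 lies at chr11:64803510-64811294 on the minus strand.

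**Figure D2:**
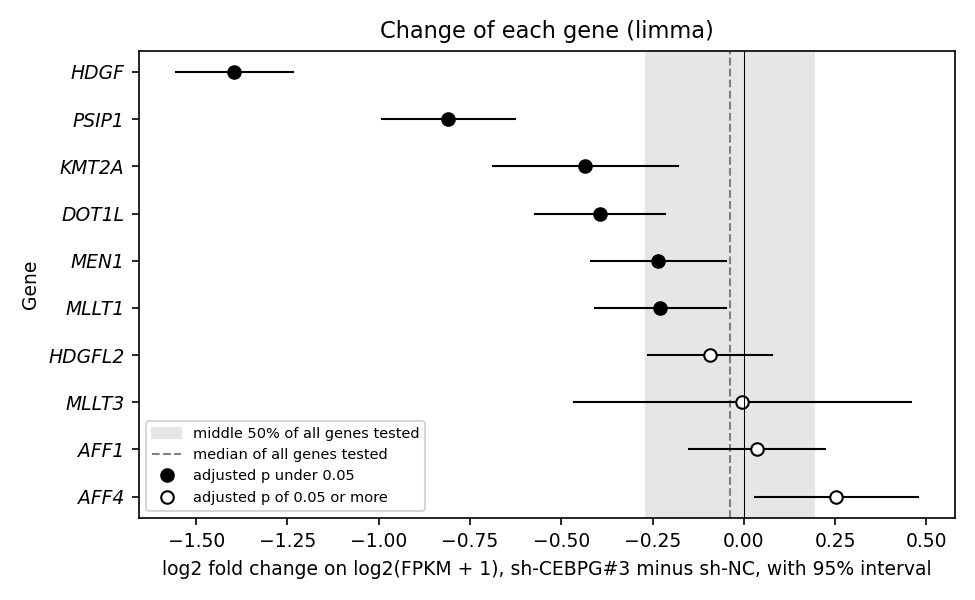
Log2 fold change of each gene, sh-CEBPG#3 minus sh-NC, from limma on log2(FPKM + 1), with its 95% interval (n = 2 libraries per group). Filled points had an adjusted p under 0.05, the grey band holds the middle 50% of all genes tested, from -0.27 to 0.19, and HDGF, PSIP1, KMT2A and DOT1L lie to its left.

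DOT1L, which methylates H3 lysine 79 in transcribed genes and is drawn to fusion targets through MLLT1 or MLLT3, was at 23.7 and 24.8 FPKM in sh-NC and 18.9 and 17.5 FPKM in sh-CEBPG#3. Both knockdown libraries were below both controls. The mean fell from 24.3 ± 0.76 to 18.2 ± 0.98 FPKM (SD, n = 2 each), 75.1% of the control, with a log2 fold change of -0.39 (SE 0.08, 95% interval -0.57 to -0.22, limma adjusted p = 0.00313). DOT1L had 1 transcript row, NM_032482, so its value was the same at both levels, and in the fit of all transcripts its adjusted p was 0.0591. The gene lies at chr19:2163933-2232578 on the plus strand, and genes of the opposite strand cover 11.7% of its exon bases. The library kit is not one that keeps strand, so reads of those neighbours cannot be told apart from its own.

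MLLT1 (ENL) and MLLT3 (AF9) are YEATS domain proteins that read acylated histone H3 and bind AFF scaffolds and DOT1L. MLLT1 was at 26.0 and 28.0 FPKM in sh-NC and 23.7 and 22.1 FPKM in sh-CEBPG#3. The groups lay apart by less than their distance in PSIP1, with means of 27.0 ± 1.45 and 22.9 ± 1.13 FPKM (SD, n = 2 each). This was 84.8% of the control (log2 fold change -0.23, SE 0.08, 95% interval -0.41 to -0.05, limma adjusted p = 0.0425). This call was narrow too, with an adjusted p of 0.152 without sh-NC replicate 2, 0.0815 without sh-CEBPG#3 replicate 1, 0.247 without sh-CEBPG#3 replicate 2 and 0.0728 without the filter. MLLT3 was the lowest of the 10, at 0.395 and 1.28 FPKM in sh-NC and 0.859 and 0.698 FPKM in sh-CEBPG#3. Both knockdown values lay between the 2 controls. Its log2 fold change was -0.004 (SE 0.21) with a 95% interval from -0.47 to 0.46 (adjusted p = 0.989). At this low level the added 1 FPKM compresses fold changes, so the interval sets no useful limit on the change of MLLT3. Its direction turned with 1 library, to 0.349 without sh-NC replicate 2. MLLT1 stood at 65.7-fold and 22.0-fold the FPKM of MLLT3 in sh-NC and at 27.5-fold and 31.6-fold in sh-CEBPG#3, so ENL transcripts far outnumbered those of AF9 in all 4 libraries (log2 difference -0.36, exact permutation p = 1.0, and 0.427 without sh-NC replicate 1). MLLT1 lies at chr19:6210381-6279975 and MLLT3 at chr9:20341669-20622499, both on the minus strand.

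AFF1 (AF4) and AFF4 are scaffolds of the super elongation complex, which joins YEATS and ELL proteins to P-TEFb, the kinase that releases paused RNA polymerase II, and neither was called. AFF1, which is also the fusion partner in MV4-11, was at 17.8 and 18.2 FPKM in sh-NC and 19.5 and 17.6 FPKM in sh-CEBPG#3. The knockdown libraries lay on either side of the controls, with means of 18.0 ± 0.26 and 18.5 ± 1.39 FPKM (SD, n = 2 each). The log2 fold change was 0.04 (SE 0.08, 95% interval -0.15 to 0.22, adjusted p = 0.755), and -0.036 without sh-CEBPG#3 replicate 1. As with KMT2A, reads from fused and intact AFF1 were not separated. AFF1 lies at chr4:86935002-87141039 on the plus strand.

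The steady AFF1 sum hid a large difference between the libraries in how it was split. NM_001166693 was at 11.6 and 11.1 FPKM in sh-NC, and at 7.58 FPKM in replicate 1 and 15.5 FPKM in replicate 2 of sh-CEBPG#3. NM_001313959 was at 5.69 and 5.65 FPKM in sh-NC, and at 10.6 and 1.40 FPKM in the same 2 libraries. Its share of AFF1 was thus 31.9% and 31.0% in sh-NC but 54.2% and 7.98% in sh-CEBPG#3, where the 2 replicates went opposite ways. No isoform change can be read from groups that disagree within themselves to this extent.

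AFF4 had the only positive change of some size among the 10 genes. It was at 3.95 and 4.35 FPKM in sh-NC and 5.37 and 4.90 FPKM in sh-CEBPG#3. Both knockdown libraries were above both controls, with means of 4.15 ± 0.29 and 5.14 ± 0.33 FPKM (SD, n = 2 each), 123.8% of the control. The log2 fold change was 0.25 (SE 0.10, 95% interval 0.03 to 0.48) and the adjusted p was 0.0654, above the threshold. It was 0.0453 when the libraries were scaled to equal totals and 0.0184 after quantile normalization, so the AFF4 call depends on the scaling. The AFF1 to AFF4 ratio was 4.52-fold and 4.19-fold in sh-NC and 3.64-fold and 3.58-fold in sh-CEBPG#3, a log2 difference of -0.27 (exact permutation p = 0.333, the smallest possible, 0.444 after adjustment). AFF4 lies at chr5:132875395-132963634 on the minus strand.

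**Figure D3:**
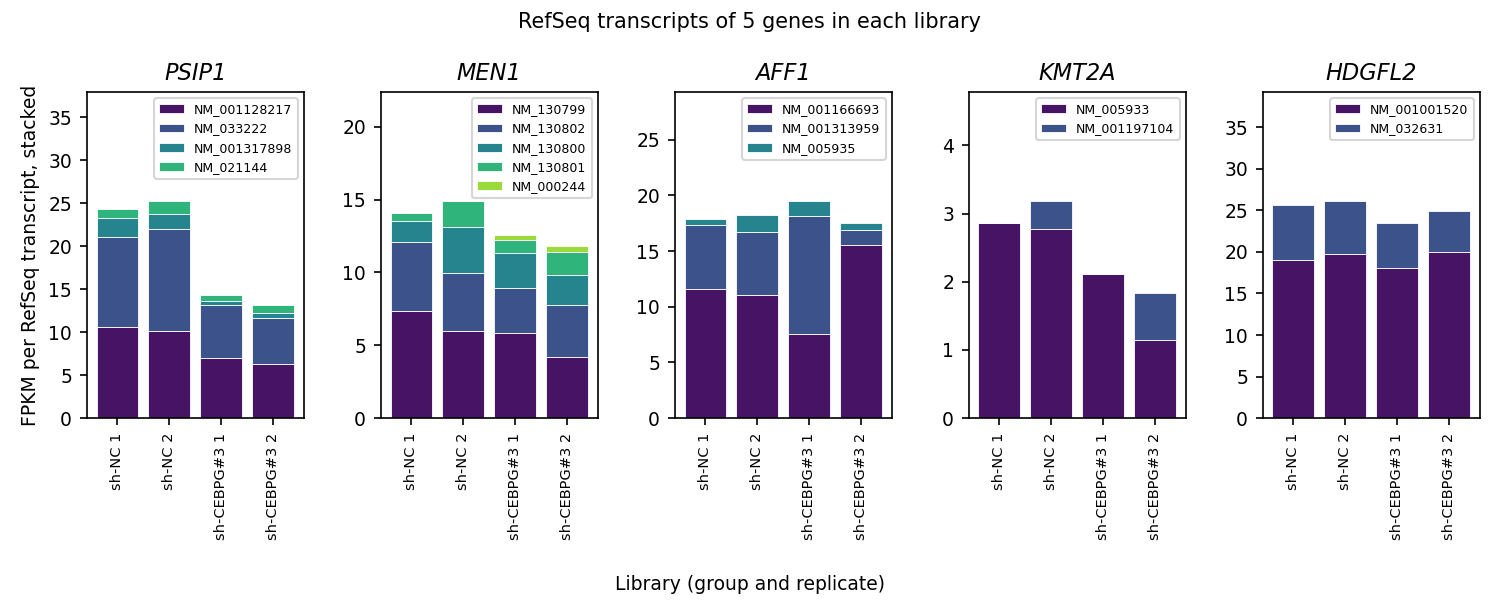
FPKM of the RefSeq transcripts of PSIP1, MEN1, AFF1, KMT2A and HDGFL2, stacked for each of the 4 libraries, each panel with its own axis from 0. All 4 PSIP1 transcripts had lower values in sh-CEBPG#3, while the split of AFF1 differed between the 2 sh-CEBPG#3 libraries, with NM_001313959 at 54.2% in one and 7.98% in the other.

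Of the 23 transcript rows of the 10 genes, 20 passed the filter. By the adjusted p, 3 were called lower (NM_004494 of HDGF, and NM_033222 and NM_001128217 of PSIP1) and none higher. Of all 18624 transcripts tested, 4.08% were called lower and 4.16% higher. At an unadjusted p under 0.05, 6 rows were lower and none was higher, and the share of all transcripts at this threshold is not given here. None of these calls held when any 1 library was left out. Those fits left 1 library in a group and called almost no transcript at all. The calls of KMT2A, MEN1, DOT1L and MLLT1 were made at the level of the gene only.

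Ordered by their level in sh-NC, the genes ran from HDGF through MLLT1, HDGFL2, PSIP1, DOT1L, AFF1, MEN1, AFF4 and KMT2A to MLLT3. Neighbours in this order had separate values in the sh-NC libraries except for MLLT1 with HDGFL2 and PSIP1 with DOT1L, whose values overlapped. In sh-CEBPG#3 DOT1L was above PSIP1 in both libraries, and the values of DOT1L and AFF1 overlapped, as did those of MLLT1 and HDGFL2.

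The rest of the pathway was described with 10 lists of other genes, 61 in all, of which 58 were in the table and tested. Of these 58, 25 were lower, 3 were higher and 30 did not pass, with a median log2 fold change of -0.14. Over all genes tested, 23.8% were lower and 18.5% higher. Without sh-CEBPG#3 replicate 2, 16 of the 58 were lower and 1 was higher, beside 1951 of all 12142 genes lower, and without sh-CEBPG#3 replicate 1, 1 was higher. The PAF1 complex, which travels with RNA polymerase II and binds the N-terminal part of MLL, had 5 of 6 members lower and none higher (median -0.31). LEO1 went from 18.0 and 18.8 FPKM in sh-NC to 12.3 and 11.5 FPKM in sh-CEBPG#3 (log2 fold change -0.59, limma adjusted p = 0.000327), the largest change of this list. WDR61, also called SKIC8, was at 19.4 and 21.3 FPKM and then 16.1 and 12.3 FPKM (-0.50, adjusted p = 0.00637), and PAF1 at 21.9 and 23.6 FPKM and then 18.1 and 17.7 FPKM (-0.33, adjusted p = 0.00799). Without sh-CEBPG#3 replicate 2 only 1 of the 6, LEO1, was called, with WDR61 at adjusted p = 0.0533 and PAF1 at 0.0542.

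Of the proteins that LEDGF binds, 3 of 7 were lower and 1 was higher (median -0.03, and 0.06 without sh-CEBPG#3 replicate 2). Of all genes tested, 23.8% were lower and 18.5% higher, and their median of -0.04 was close to that of this list. CDCA7L (JPO2), a MYC-interacting protein held to chromatin by the same domain of LEDGF/p75 as menin, was at 28.0 and 32.3 FPKM in sh-NC and 14.0 and 12.6 FPKM in sh-CEBPG#3. It had the largest fall of all the listed genes (log2 fold change -1.12, SE 0.09, limma adjusted p = 1.23e-05) and was the only one of them past the threshold of the study on the log2(FPKM + 1) scale. MEIS1, described below, also passed it with a pseudocount of 0.1 or 0.01. DBF4, the activator of the replication kinase CDC7, was at 6.73 and 6.34 FPKM and then 4.59 and 4.75 FPKM (-0.41, adjusted p = 0.00556), and the elongation factor IWS1 at 17.1 and 17.4 FPKM and then 13.3 and 13.1 FPKM (-0.37, adjusted p = 0.00426). MORF4L1 (MRG15), itself a reader of methylated H3 lysine 36, was higher (56.6 and 61.8 FPKM against 80.3 and 68.3 FPKM, log2 fold change 0.32, adjusted p = 0.0168), although not without sh-CEBPG#3 replicate 1 (adjusted p = 0.21).

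In the MLL core complex 3 of 8 genes were lower and none was higher (median -0.10), against 23.8% and 18.5% of all genes tested, and the shared subunits WDR5, RBBP5, ASH2L and DPY30 were not among those that passed. TASP1, the protease that cleaves KMT2A, was at 5.72 and 4.38 FPKM in sh-NC and 3.02 and 2.78 FPKM in sh-CEBPG#3 (log2 fold change -0.63, limma adjusted p = 0.00257). The host cell factor HCFC1 was at 25.7 and 28.4 FPKM and then 19.3 and 16.8 FPKM (-0.56, adjusted p = 0.000874), and the acetyltransferase KAT8 at 18.5 and 19.4 FPKM and then 13.7 and 13.6 FPKM (-0.45, adjusted p = 0.00143). Of the related H3 lysine 4 methyltransferases, 3 of 5 were lower (median -0.34), namely KMT2D (-0.34, adjusted p = 0.0176), SETD1A (-0.44, adjusted p = 0.00689) and SETD1B (-0.35, adjusted p = 0.0144). Without sh-CEBPG#3 replicate 2 only SETD1A was called, and KMT2D was at adjusted p = 0.0927 and SETD1B at 0.0704. The KMT2D call was also lost without sh-NC replicate 1 (adjusted p = 0.108) and that of SETD1B without sh-NC replicate 2 (adjusted p = 0.0969). The log2 fold change of KMT2A itself, -0.43, was close to that of SETD1A.

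The super elongation complex and P-TEFb had calls in both directions. Of 10 other members listed, 9 were tested, 2 were lower, 2 were higher and the median was 0.01. Of all genes tested, 23.8% were lower and 18.5% higher, so these counts lie near the shares over all genes. The P-TEFb kinase CDK9 was higher, from 16.7 and 18.5 FPKM in sh-NC to 21.6 and 24.0 FPKM in sh-CEBPG#3 (log2 fold change 0.35, limma adjusted p = 0.00898), while its cyclin CCNT1 was lower, from 7.69 and 8.62 FPKM to 6.08 and 5.22 FPKM (-0.46, adjusted p = 0.005). The ELL-associated factor EAF2 was lower (-0.47, adjusted p = 0.00302). AFF3, another AFF scaffold, was higher, from 4.27 and 4.59 FPKM to 5.41 and 5.66 FPKM (0.27, adjusted p = 0.0446). The AFF3 call was lost without any 1 of the 4 libraries (adjusted p from 0.0645 to 0.195), and that of CDK9 without sh-CEBPG#3 replicate 2 (adjusted p = 0.0826). Of the 7SK complex that holds P-TEFb inactive, 1 of 4 was lower, the capping enzyme MEPCE (-0.35, adjusted p = 0.00652), beside 23.8% of all genes. Of the 4 other DOT1L complex and YEATS genes 1 was lower, beside the same 23.8% of all genes. This was YEATS4 (GAS41), from 29.9 and 33.2 FPKM to 21.2 and 22.1 FPKM (-0.52, adjusted p = 0.000675). The 2 remaining HDGF relatives, HDGFL1 and HDGFL3, were not analysed here.

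**Figure D4:**
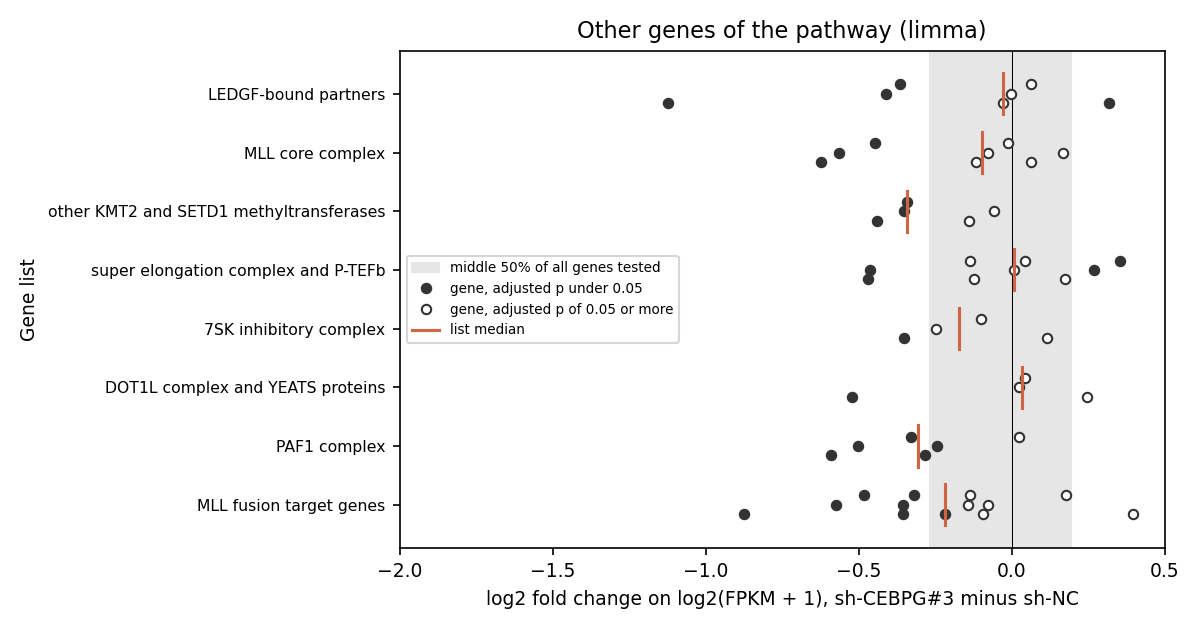
Log2 fold change, sh-CEBPG#3 minus sh-NC, of each tested gene in 8 lists of other pathway genes (points, filled where the adjusted p was under 0.05), with the list median as an orange bar and the middle 50% of all genes tested in grey. CDCA7L at -1.12 and MEIS1 at -0.87 stand farthest to the left, and only 3 genes, MORF4L1, AFF3 and CDK9, were called higher.

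The known targets of MLL fusions are a common readout of this complex. Of these, 7 of 13 were lower, none was higher and 6 did not pass (median log2 fold change -0.22), against 23.8% of all genes tested lower and 18.5% higher. With no filter on low genes 4 were lower, beside 2232 of all genes in that fit and 2884 in the main fit. Fewer targets, and fewer of all genes, were called lower without replicate 2 of either group. Without sh-NC replicate 2, RUNX2 was called higher. MEIS1, the homeobox cofactor of HOXA9, was at 6.65 and 7.34 FPKM in sh-NC and 3.42 and 3.29 FPKM in sh-CEBPG#3, so both knockdown libraries were about level with each other and well below the controls (log2 fold change -0.87, SE 0.10, limma adjusted p = 8.31e-05). This is 48.0% of the control mean, and the log2 fold change was -1.03 with a pseudocount of 0.1 and -1.05 with 0.01. HOXA9 itself was at 31.5 and 35.7 FPKM and then 28.5 and 23.6 FPKM (-0.36, adjusted p = 0.0167), with the knockdown libraries farther apart and no call without sh-CEBPG#3 replicate 2 (adjusted p = 0.168) or with no filter (0.0869). HOXA7 was at 5.24 and 5.90 FPKM and then 2.82 and 4.10 FPKM (-0.57, adjusted p = 0.0074, and 0.0719 with no filter). ZEB2 was at 27.9 and 29.6 FPKM and then 21.8 and 18.9 FPKM (-0.48, adjusted p = 0.00176). The summed myeloid markers given above went the other way, upwards, and FLT3, which belongs to both lists, did not pass the test. Whether the shift in myeloid markers has a part in these falls was not tested.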

How the data were processed

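RNA-seq was done on 4 MV4-11 libraries, 2 with sh-NC and 2 with sh-CEBPG#3. The authors filtered the reads, aligned them to hg38 with HISAT2 2.0.5 (submitters' processing notes) and deposited FPKM values per RefSeq transcript and library. The quantifier and the annotation are not given in the sources used here. Rows of a symbol were summed per library. Of 28780 rows, 199 had no value. In 1027 low rows, at most 0.487% shared 1 ratio between the sh-NC libraries (to 3 decimals), which shows no whole-read steps, so depth is unknown, and no count test or counting interval was given.

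Genes whose mean over the libraries reached 0.5 FPKM were fitted on log2(FPKM + 1), a pseudocount of 1, with limma 3.58.1 in R 4.3.3 (lmFit, eBayes with trend, group only), tested on simulated data, and adjusted by the Benjamini-Hochberg method over all genes or all transcripts tested. Calls used an adjusted p under 0.05. Ratios were tested by exact two-sided permutation over libraries. The alternatives were other pseudocounts, filters and scalings, a replicate block, the most abundant transcript, and leaving out each library. Positions and exons are from GENCODE release 44 (GRCh38), and promoter windows from RefSeq (GRCh38.p14). All 23 rows matched RefSeq entries. Pseudogenes of these genes were not analysed here, and 1 of the pathway lists is not reported by itself.

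The 10 genes and the pathway lists were chosen with earlier results of these data known. From each list, up to 3 called genes with the largest absolute log2 fold change and a mean of at least 1 FPKM were named, with HOXA9 and MEIS1. MORF4L1, AFF3 and the uncalled list genes that are named fell outside this rule and were chosen after their values were seen.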

Additional observations from a re-analysis of the deposited data

How the results depend on the processing

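HDGF (log2 fold change -1.45 to -1.34) and PSIP1 (-0.87 to -0.56) kept their call under all 12 alternatives. The number of the 10 genes called lower, 6, was 4 with no filter, 4 with the replicate number as a block, 2 from the most abundant transcripts, and 3 to 6 when 1 library was left out. Over all genes, the number called lower was 2232 with no filter and 2673 with the block, against 2884 in the main fit. Of the 10 genes, the number called higher, 0, was 1 with equal totals and 1 with quantile normalization, AFF4 in both. The transcripts called lower, 3, were 2 with a pseudocount of 0.1, 2 with 0.01 and 1 with no filter. They were 4 with quantile normalization, 5 with equal totals and 1 with the replicate block. None of the 3 calls held when any 1 library was left out. Of the other pathway genes, 25 lower became 18 with no filter, 23 with the block and 16 to 24 when 1 library was left out, and 3 higher became 1 with no filter, 6 with quantile normalization and 1 to 4 when 1 library was left out. With no filter, MORF4L1, KMT2D, SETD1B, AFF3, WDR61, HOXA7 and HOXA9 were not called (limma adjusted p from 0.0593 to 0.0906). The log2 difference of the MLLT1 to MLLT3 ratio, -0.36, ran from -1.15 to 0.43 when 1 library was left out (0.427 without sh-NC replicate 1). AFF1 turned to -0.036 without sh-CEBPG#3 replicate 1 and -0.052 from its most abundant transcript. MLLT3 turned to 0.084 and 0.12 with pseudocounts of 0.1 and 0.01, 0.349 without sh-NC replicate 2 and 0.061 without sh-CEBPG#3 replicate 2, and it was not tested with a filter of 1 FPKM. Among 119 values of the 10 genes over the alternatives, 95 kept direction and call, 16 lost the call, 6 changed direction and 2 gained a call. The cause was not tested.

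Replicates were numbered as in the titles of the samples, and deviations of same-numbered libraries correlated weakly (r = 0.061 over 12142 genes, 2 pairs). With 2 libraries per group this cannot show whether same-numbered libraries share a culture or batch, and the main fit assumed no pairing. With the block, 2673 of all genes were lower and 2088 higher (2884 and 2244 without it), and MEN1 (adjusted p = 0.11), MLLT1 (0.118) and AFF3 (0.0716) were not called in limma. When 1 library was left out, the lone library was assumed to vary like the other group. With no read depth known, low genes such as MLLT3 and KMT2A have no counting error attached.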
